A study of Mus musculus with 30 samples.

Results

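The caveolin and cavin genes were followed in 3T3-L1 cells, mouse preadipocytes of fibroblast type that turn into adipocytes when induced, after knockdown of Kdm5c, the gene of an X-linked histone H3 lysine demethylase. The 6 genes were taken by name: the caveolins Cav1 and Cav2, the cavins Cavin1 (also called Ptrf), Cavin2 (Sdpr) and Cavin3 (Prkcdbp), and Ehd2. They are 6 of the 55573 genes listed in the deposited CPM table, and all 6 were among the 12016 genes of the deposited count table. Every group was of the same line, and every culture had received 50 nM of an siRNA by reverse transfection of sub-confluent preadipocytes with Lipofectamine RNAiMAX. One set of cells received an ON-TARGET siRNA against Kdm5c, and the other a non-targeting ON-TARGET siRNA, called scramble. Cells were collected 24 h (day −2), 48 h (day −1) and 72 h (day 0) after transfection, day 0 being the day on which differentiation would start. The 6 groups held 5 libraries each, 30 in all, from total RNA by a strand-specific mRNA kit. No label tells if the 5 replicates came from separate cultures. A p-value therefore measures no more than the spread among libraries of the same group, possibly technical. In the main fit this spread is taken over all 6 groups.

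Caveolae are small flask-shaped pits of the plasma membrane. Caveolins are hairpin proteins that sit in the inner leaflet of the membrane, cavins are cytosolic coiled-coil proteins that form a coat around the pit, and EHD2 is a dynamin-like ATPase found at the neck, where it holds the pit at the surface. CAV1 and cavin-1 are both needed for caveolae to form outside striated muscle, and adipocytes are among the cells richest in them, where caveolae have been linked to insulin signalling, fatty acid uptake and the buffering of membrane tension.

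Cav1 and Cav2 are neighbours in the genome. Cav2 (ENSMUSG00000000058, GRCm38 chromosome 6, 17281185 to 17289115) and Cav1 (ENSMUSG00000007655, chromosome 6, 17306335 to 17341452) lie on the plus strand, 17219 bases apart with 0 annotated genes between them. The antisense gene Gm15581 overlaps both on the opposite strand. Cavin1 (ENSMUSG00000004044) lies on chromosome 11, 100956733 to 100970887, minus strand, and Cavin2 (ENSMUSG00000045954) on chromosome 1, 51289126 to 51302960, plus strand. Cavin3 (ENSMUSG00000037060, 105480083 to 105482300) and Ehd2 (ENSMUSG00000074364, 15946958 to 15967567) both lie on the minus strand of chromosome 7. Cavin2 and Cavin3 are also overlapped on the opposite strand, by 9330175M20Rik and Gm45667. The kit marks strand, but whether the counting used it is not given in the sources used here, so reads of these overlapping genes may be included in Cav1, Cav2, Cavin2 and Cavin3.

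The sequences before the starts of 4 members are shown because these genes carry the results: Cav1 and Cav2 as neighbours that moved together over the days, Cavin1 as the one member called lower under Kdm5c siRNA, and Cavin2 for the largest siRNA difference. Each is the 250 bases before a RefSeq transcript start in GRCm38.p6, given 5′ to 3′ on the gene's own strand. Capitals mark matches, on either strand, to CCAAT (the CCAAT box), GGGCGG (the GC box), TATAAA (the TATA box), CATTCC (the core bound by TEAD factors) or TGACTCA (the AP-1 site); the motifs TTTGAA and CACGTG were searched as well, and no match overlapped another. The windows were chr6:17306085-17306334 for Cav1, chr6:17280935-17281184 for Cav2, chr11:100970618-100970867 on the minus strand for Cavin1 and chr1:51288876-51289125 for Cavin2. The Cavin1 window lies before a RefSeq start but inside the gene as annotated above, whose minus-strand start is at 100970887.
Cav1: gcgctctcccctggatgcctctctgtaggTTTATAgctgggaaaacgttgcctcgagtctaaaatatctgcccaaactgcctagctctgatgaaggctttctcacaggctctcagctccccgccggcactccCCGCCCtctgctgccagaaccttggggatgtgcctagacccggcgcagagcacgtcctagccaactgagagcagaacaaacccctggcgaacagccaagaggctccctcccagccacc
Cav2: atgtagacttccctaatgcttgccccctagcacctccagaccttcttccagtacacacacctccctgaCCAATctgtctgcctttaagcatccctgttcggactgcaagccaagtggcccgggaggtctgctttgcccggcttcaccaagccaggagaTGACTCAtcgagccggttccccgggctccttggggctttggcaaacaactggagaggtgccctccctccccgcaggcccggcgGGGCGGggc
Cavin1: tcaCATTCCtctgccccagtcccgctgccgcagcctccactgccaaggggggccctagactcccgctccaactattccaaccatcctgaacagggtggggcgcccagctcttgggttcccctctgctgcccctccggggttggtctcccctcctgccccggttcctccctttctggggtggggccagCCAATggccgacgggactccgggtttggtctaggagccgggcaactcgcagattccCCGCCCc
Cavin2: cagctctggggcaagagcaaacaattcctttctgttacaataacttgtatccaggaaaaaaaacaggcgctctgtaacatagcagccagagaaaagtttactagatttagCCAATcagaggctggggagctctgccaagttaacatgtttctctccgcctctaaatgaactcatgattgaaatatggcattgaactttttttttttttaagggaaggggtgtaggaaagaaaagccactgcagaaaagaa

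RefSeq windows were found for 5 of the 6 members. The Cavin2 window was poor in G and C, at 40.4%, against 59.6% for Cav1, 62.0% for Cav2, 67.6% for Cavin1 and 58% for Ehd2, and the median over 32536 mouse windows of this length was 52.4%. A CCAAT match was present in the windows of Cav2, Cavin1, Cavin2 and Ehd2 and in 33.8% of all windows, and a GC-box match in those of Cav1, Cav2, Cavin1 and Ehd2 and in 33.0% of all. The Cavin2 window held the CCAAT match alone among the motifs searched. The AP-1 letters, present in 4.45% of windows, were matched in Cav2, the TEAD letters (12.6%) in Cavin1 and the TATA letters (12.3%) in Cav1, far from the start at 221 bases before it. Cav1 has another RefSeq start inside the gene, and the window before it held no match. TTTGAA (15.8%) was matched in the Ehd2 window, and CACGTG (6.04%) in none of the 5 genes. These matches describe letters and not binding.

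Library totals were 25.2 to 33.7 M reads, and the smallest read count of any member in any library was 322. The 3 reads that a count of 0 allows corresponded to 0.089 to 0.119 CPM. Kdm5c (chromosome X, 152233020 to 152274535) had 25.5 ± 1.29 CPM in Kdm5c siRNA cells and 157.1 ± 1.75 CPM in scramble cells on day −2, 35.6 ± 3.57 and 188.9 ± 2.91 CPM on day −1, and 53.3 ± 2.38 and 211.7 ± 4.84 CPM on day 0 (SD, n = 5 each). The 9 fibroblast and preadipocyte markers were all in the count table and summed to 26700 to 40000 CPM. Of 10 mature adipocyte markers 4 were, and Adipoq, Plin1, Cidec and Lep stayed at or below 0.181 CPM with Cfd at 0 in all 30 libraries. One group was uneven. In the scramble libraries of day −1, the first principal component of the deviations from the group mean, with 42.3% of their variance, placed replicates 1, 2 and 3 at 4.78, 7.97 and 4.34 and replicates 4 and 5 at −8.96 and −8.13. The labels give no batch. For the members, several siRNA differences and steps that use this group are also given without replicates 1, 2 and 3 or without replicates 4 and 5. Levels, shares, ratios, the shares of all genes and the other gene lists are given with all 5 libraries of this group only.

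Per kilobase of exon, the sum of the 6 transcripts was 596.4 ± 10.8 CPM in Kdm5c siRNA cells and 587.5 ± 7.79 CPM in scramble cells on day −2, 550.6 ± 6.87 and 547.0 ± 3.99 CPM on day −1, and 366.9 ± 7.36 and 345.9 ± 7.4 CPM on day 0 (SD, n = 5 each). Cavin1 and Cav1 made up most of it. In these bulk libraries, fewer cells of a type and less RNA per cell cannot be told apart. On day −2, Cav1 held 38.7 ± 0.627% of the sum in Kdm5c siRNA cells and 36.9 ± 0.466% in scramble cells, and by day 0 it held 25.3 ± 0.44% in Kdm5c siRNA cells and 23.1 ± 0.597% in scramble cells. The share of Ehd2 took the opposite course, with 13 ± 0.19% in Kdm5c siRNA cells and 13.1 ± 0.236% in scramble cells on day −2, and 19.2 ± 0.628% and 19.4 ± 0.538% on day 0. The level of Ehd2 per kilobase itself fell. It was 77.8 CPM in Kdm5c siRNA cells and 76.7 CPM in scramble cells on day −2, and 70.6 and 67.1 CPM on day 0. The share of Cavin1 ran from 35.9 to 43.7% over the 6 groups, that of Cavin3 from 4.87 to 8.65%, that of Cav2 from 4.54 to 5.09% and that of Cavin2 from 1.05 to 2.28%. In mean level per kilobase over the 30 libraries the order was Cavin1 (201.3 CPM), Cav1 (160.0), Ehd2 (74.9), Cavin3 (30.9), Cav2 (24.2) and Cavin2 (7.77). This order rests on the length assigned to each gene. With the median length of the annotated transcripts in place of all exons, Cav1 came first, since its median transcript has 472 bases, and 2 of the 6 genes kept their place.

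**Figure D1:**
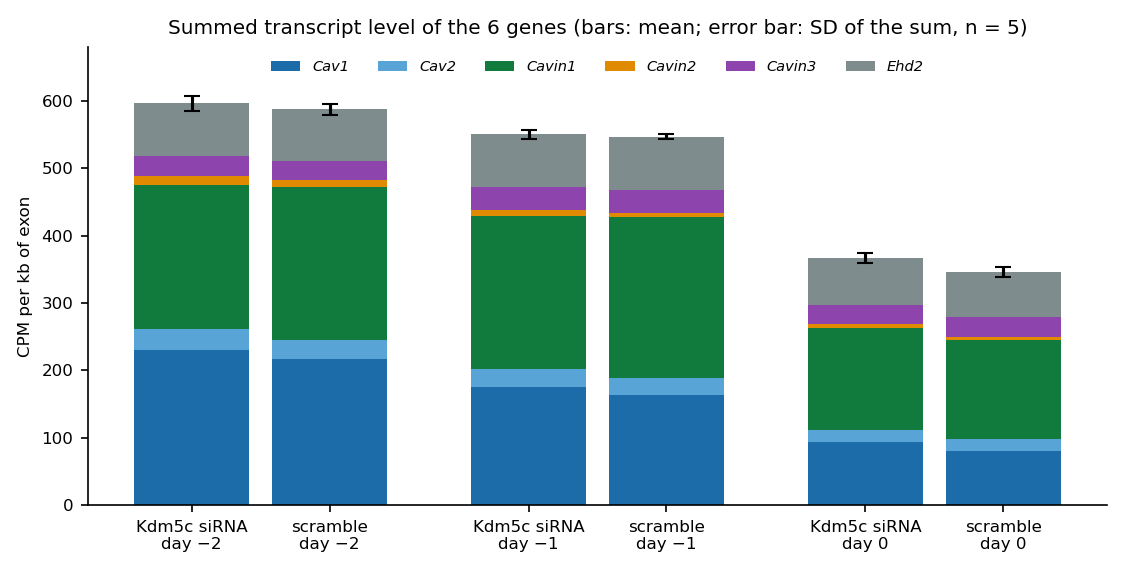
Summed level of the 6 transcripts in CPM per kilobase of exon, by group, with Kdm5c siRNA left of scramble on each day; colours give the mean of each gene and the error bar the SD of the sum (n = 5). The sum is lowest on day 0, and the Cav1 part (dark blue) shrinks most, from 38.7% and 36.9% of the sum on day −2 to 25.3% and 23.1% on day 0.

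Cav1, the structural protein without which non-muscle caveolae are lost, declined on each day and declined less far under Kdm5c siRNA. On day −2 its level was 778, 798, 782, 795 and 820 CPM in Kdm5c siRNA cells and 731, 759, 749, 737 and 761 CPM in scramble cells. On day −1 it was 605, 602, 595, 598 and 619 CPM in Kdm5c siRNA cells and 546, 559, 549, 575 and 596 CPM in scramble cells. On day 0 it was 336, 318, 320, 318 and 309 CPM in Kdm5c siRNA cells and 291, 267, 280, 267 and 271 CPM in scramble cells. The groups of the 2 siRNAs did not overlap on day −2 or day 0, and on day −1 the highest scramble library, replicate 5, just exceeded the lowest Kdm5c siRNA library. In scramble cells Cav1 fell by 0.48 on the log2 scale on day −1 relative to day −2, by 1.00 on day 0 relative to day −1, and by 1.48 (SE 0.0244, adjusted p = 1.2e-32) on day 0 relative to day −2, a fold of 0.359. In Kdm5c siRNA cells it fell by 0.47, 0.88 and 1.35 over the same steps, the last being a fold of 0.392 (SE 0.0243, adjusted p = 1.32e-31). Of all genes tested, 2.68% changed by a lower value than Cav1 over the whole interval in scramble cells. The log2 fold change of Kdm5c siRNA over scramble was 0.09 on day −2 (SE 0.0236, adjusted p = 0.00382), 0.10 on day −1 (SE 0.0237, adjusted p = 0.00128) and 0.22 on day 0 (SE 0.0244, adjusted p = 8.59e-09). These are folds of 1.07, 1.07 and 1.17, so Cav1 was higher with the Kdm5c siRNA on each day. An exact permutation test, two-sided, of the log2 CPM of 5 against 5 libraries gave p = 0.00794, 0.0159 and 0.00794 for the 3 days, where 0.00794 is the smallest that this number of libraries allows. The siRNA difference was larger on day 0 than on day −2 by 0.13 (SE 0.0339, adjusted p = 0.00814) and than on day −1 by 0.12 (SE 0.034, adjusted p = 0.0259; lost in 5 of 20 fits that left out 1 library, adjusted p 0.00609 to 0.0578). The day −1 difference depended on which scramble libraries were used. Without scramble replicates 1, 2 and 3 it was 0.05 (adjusted p = 0.284), and without replicates 4 and 5 it was 0.14 (adjusted p = 6.2e-05); the day 0 minus day −1 difference was 0.17 (adjusted p = 0.00589) and 0.08 (adjusted p = 0.12) in those fits.

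**Figure D2:**
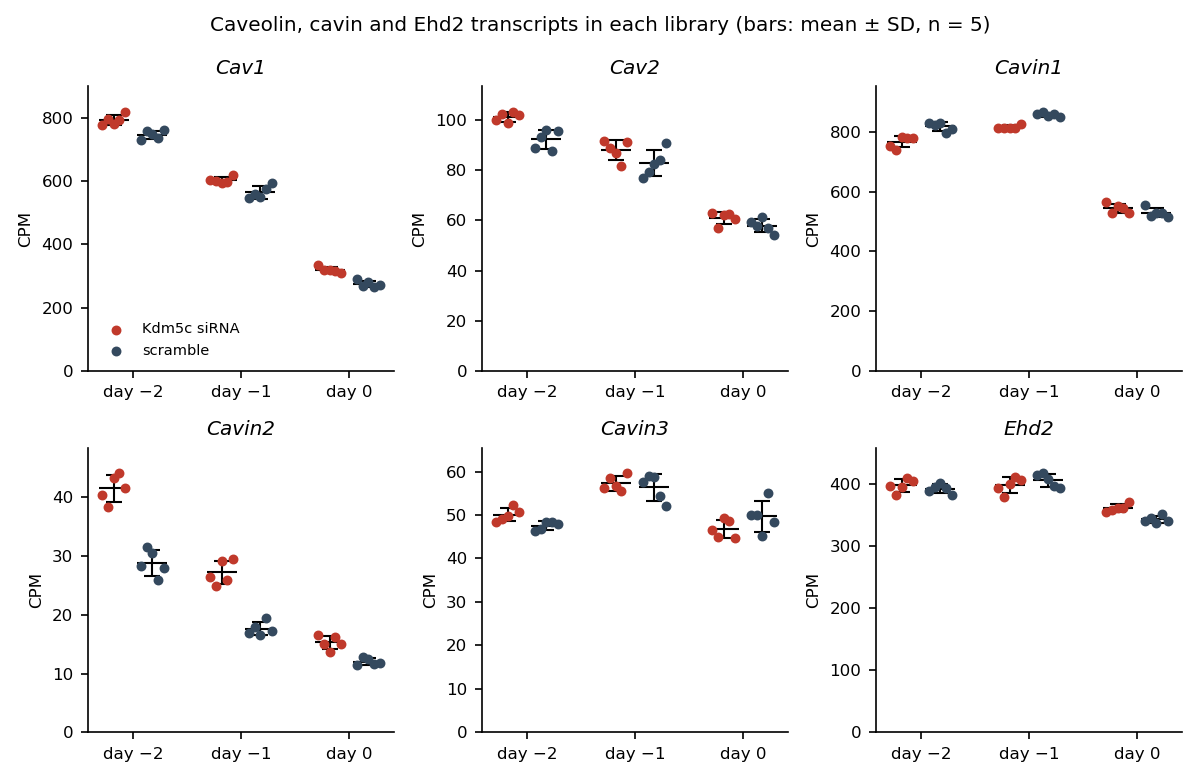
CPM of each member in each of the 30 libraries by day, with Kdm5c siRNA (red) left of scramble (dark blue); black bars are mean ± SD (n = 5) and the vertical axes start at 0. Cavin2 is higher in every Kdm5c siRNA library than in any scramble library of its day, Cav1 declines stepwise from 820 CPM at most on day −2 to 267 CPM at least on day 0, and Cavin3 and Ehd2 overlap between the siRNAs on day −2 and day −1.

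Cav2, which assembles with CAV1 and depends on it to leave the Golgi, declined with its neighbour by a smaller factor. It had 99.9, 102, 98.8, 103 and 102 CPM in Kdm5c siRNA cells and 88.9, 93.3, 96.1, 87.7 and 95.6 CPM in scramble cells on day −2, with no overlap. On day −1 the values were 91.5, 89.0, 87.0, 81.7 and 91.3 CPM in Kdm5c siRNA cells and 77.0, 79.4, 82.6, 84.2 and 90.7 CPM in scramble cells, and on day 0 they were 62.8, 56.9, 62.2, 62.6 and 60.7 CPM in Kdm5c siRNA cells and 59.3, 57.6, 61.4, 57.1 and 54.1 CPM in scramble cells. The groups overlapped on both of these days. Cav2 fell from step to step under both siRNAs, and over the whole interval by 0.77 (SE 0.0373, adjusted p = 9.71e-20) in Kdm5c siRNA cells and by 0.71 (SE 0.0376, adjusted p = 1.1e-18) in scramble cells on the log2 scale. Kdm5c siRNA over scramble gave 0.14 (SE 0.036, adjusted p = 0.00485) on day −2. The exact permutation p was 0.00794, 0.119 and 0.103 on the 3 days. The values of 0.09 (95% interval 0.02 to 0.17, adjusted p = 0.05001) on day −1 and 0.08 (0.0001 to 0.16, adjusted p = 0.114) on day 0 did not pass. The day −1 value was called without scramble replicate 5 (0.13, adjusted p = 0.0055) or without Kdm5c siRNA replicate 4 (0.12, adjusted p = 0.014), and was 0.15 (adjusted p = 0.00261) without scramble replicates 4 and 5 and 0.01 (adjusted p = 0.896) without replicates 1, 2 and 3. The siRNA difference of Cav2 was not shown to change between days (day 0 minus day −2, −0.06, 95% interval −0.17 to 0.05, adjusted p = 0.508). The ratio of Cav1 to Cav2 per kilobase was 7.6 ± 0.124 in Kdm5c siRNA cells and 7.85 ± 0.225 in scramble cells on day −2, 6.65 ± 0.261 and 6.62 ± 0.223 on day −1, and 5.09 ± 0.211 and 4.61 ± 0.189 on day 0 (SD, n = 5 each). The caveolin mix therefore held relatively more Cav2 transcript on day 0 than on day −2 under either siRNA.

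Cavin1, the coat protein required for caveolae, kept its level until day −1 and then fell. It had 752, 741, 784, 780 and 779 CPM in Kdm5c siRNA cells and 828, 824, 831, 796 and 811 CPM in scramble cells on day −2. On day −1 it had 814, 812, 814, 814 and 826 CPM in Kdm5c siRNA cells and 860, 867, 854, 859 and 849 CPM in scramble cells. On these 2 days the highest Kdm5c siRNA library was below the lowest scramble library. On day 0 the values were 565, 530, 553, 546 and 530 CPM in Kdm5c siRNA cells and 556, 520, 529, 528 and 516 CPM in scramble cells, and the groups overlapped. Cavin1 was the one member called lower with the Kdm5c siRNA, on day −2 and day −1 only. The log2 fold change was −0.09 (SE 0.0196, adjusted p = 0.00109) on day −2 and −0.07 (SE 0.0196, adjusted p = 0.00563) on day −1, and 0.04 (95% interval 0.002 to 0.08, adjusted p = 0.0936) on day 0. The exact permutation p was 0.00794, 0.00794 and 0.159. The day −1 call was lost without scramble replicates 1, 2 and 3 (−0.07, adjusted p = 0.0791) and held without replicates 4 and 5 (−0.07, adjusted p = 0.0135), and the day 0 difference passed without scramble day 0 replicate 1 (0.06, adjusted p = 0.0191). The siRNA difference on day 0 exceeded that on day −2 by 0.13 (SE 0.0279, adjusted p = 0.00116) and that on day −1 by 0.11 (SE 0.0279, adjusted p = 0.0114; 0.11 and adjusted p = 0.0665 without scramble replicates 1, 2 and 3). Cavin1 fell by 0.55 (adjusted p = 2.36e-22) in Kdm5c siRNA cells and by 0.66 (adjusted p = 1.79e-24) in scramble cells on day 0 relative to day −1. Day −1 relative to day −2 gave 0.01 (adjusted p = 0.517) in Kdm5c siRNA cells and −0.004 (adjusted p = 0.839) in scramble cells after TMM scaling. The deposited CPM was higher on day −1 in every library of either siRNA, and scaling factors were 0.969 to 0.977 on day −2 and 1.02 to 1.03 on day −1, so the direction of this step depends on the scaling.

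Cavin2, which together with cavin-1 shapes the coat and elongates caveolae, showed the largest siRNA difference of the 6 genes on all 3 days. On day −2 it had 40.4, 38.3, 43.3, 44.0 and 41.6 CPM in Kdm5c siRNA cells and 28.2, 31.5, 30.4, 25.9 and 27.9 CPM in scramble cells. On day −1 it had 26.5, 24.97, 29.1, 25.98 and 29.4 CPM in Kdm5c siRNA cells and 16.98, 17.8, 16.6, 19.4 and 17.2 CPM in scramble cells. On day 0 it had 16.6, 15.1, 13.7, 16.2 and 14.97 CPM in Kdm5c siRNA cells and 11.5, 12.8, 12.5, 11.7 and 11.8 CPM in scramble cells. No scramble library reached the lowest Kdm5c siRNA library of its day. The log2 fold change of Kdm5c siRNA over scramble was 0.53 (SE 0.0518, adjusted p = 1.37e-09) on day −2, 0.63 (SE 0.0567, adjusted p = 9.82e-11) on day −1 and 0.35 (SE 0.0646, adjusted p = 6.31e-05) on day 0, folds of 1.45, 1.55 and 1.27, with an exact permutation p of 0.00794 on each day. By absolute size Cavin2 ranked 77, 123 and 718 among the 12016 genes on these days, and 99.6, 99.3 and 96.4% of genes had a lower fold change. It kept these calls in every fit run, including those without scramble day −1 replicates 1, 2 and 3 (0.57, adjusted p = 1.65e-06) or 4 and 5 (0.67, adjusted p = 1.13e-09). Cavin2 also fell over the days, by 1.48 (SE 0.0561, adjusted p = 8.47e-23) in Kdm5c siRNA cells and by 1.30 (SE 0.0597, adjusted p = 2.2e-20) in scramble cells on day 0 relative to day −2. The Kdm5c siRNA cells of day −1, at 27.2 ± 1.98 CPM, were thus close to the scramble cells of day −2, at 28.8 ± 2.22 CPM (SD, n = 5 each), with libraries of 24.97 to 29.4 and 25.9 to 31.5 CPM. The siRNA difference on day 0 was smaller than that on day −1 by −0.28 (SE 0.0862, adjusted p = 0.0451) (a call lost in 14 of the 20 fits that left out 1 library of this contrast, whose adjusted p ran from 0.0201 to 0.0971); against day −2 it was −0.18 (adjusted p = 0.139). Relative to Cavin1, Cavin2 stood at 0.0635 ± 0.00216 in Kdm5c siRNA cells and 0.0413 ± 0.00264 in scramble cells per kilobase on day −2, and at 0.033 ± 0.00228 and 0.0268 ± 0.00178 on day 0.

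Cavin3, the cavin that recruits protein kinase C delta and links caveolae to signalling, did not pass the adjusted edgeR test between the siRNAs on any day. It had 48.4, 49.1, 49.8, 52.3 and 50.7 CPM in Kdm5c siRNA cells and 46.2, 46.7, 48.4, 48.5 and 48.0 CPM in scramble cells on day −2. On day −1 it had 56.2, 58.5, 56.7, 55.5 and 59.6 CPM in Kdm5c siRNA cells and 57.6, 58.9, 58.8, 54.5 and 52.0 CPM in scramble cells, and on day 0 46.5, 45.0, 49.4, 48.6 and 44.7 CPM in Kdm5c siRNA cells and 50.0, 50.0, 45.3, 55.1 and 48.3 CPM in scramble cells. The groups overlapped on all 3 days. The log2 fold changes were 0.08 (95% interval −0.003 to 0.16, adjusted p = 0.162), 0.03 (−0.05 to 0.11, adjusted p = 0.635) and −0.09 (−0.17 to −0.003, adjusted p = 0.0996) on days −2, −1 and 0, and the exact permutation p was 0.0159, 0.571 and 0.135. The day 0 value was called without scramble day 0 replicate 3 (−0.12, adjusted p = 0.0186). The siRNA difference on day 0 minus that on day −2 was −0.16 (SE 0.057, adjusted p = 0.0452), a call lost in 13 of the 20 fits that left out 1 library (adjusted p 0.0111 to 0.119). The signs on these 2 days were opposite, but neither value was called in the main fit. Cavin3 rose on day −1 relative to day −2 in both groups, by 0.12 (SE 0.0396, adjusted p = 0.00677; 0.08 and adjusted p = 0.0636 with no low-count filter) in Kdm5c siRNA cells and by 0.17 (SE 0.0397, adjusted p = 0.000216) in scramble cells. It fell on day 0 relative to day −1 by 0.26 (adjusted p = 6.59e-07) in Kdm5c siRNA cells and by 0.14 (adjusted p = 0.00158) in scramble cells. No other member rose from day −2 to day −1 in the TMM-scaled fit. Cavin1 did with upper-quartile scaling, and it was also above 0 by limma without TMM. Over the alternative fits its highest value on that step was 0.0685 in scramble cells and 0.0898 in Kdm5c siRNA cells. Without scramble day −1 replicates 1, 2 and 3 the scramble steps of Cavin3 were 0.09 (adjusted p = 0.1) and −0.06 (adjusted p = 0.255). Over the whole interval Cavin3 changed by −0.14 (adjusted p = 0.00236) in Kdm5c siRNA cells and 0.03 (adjusted p = 0.515) in scramble cells; with upper-quartile scaling these were −0.08 (adjusted p = 0.0826) and 0.09 (adjusted p = 0.046).

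Ehd2, the ATPase of the neck, changed little over the days and passed the test between the siRNAs on day 0 only. It had 397, 383, 396, 409 and 405 CPM in Kdm5c siRNA cells and 390, 395, 401, 394 and 383 CPM in scramble cells on day −2, and 393, 379, 401, 412 and 407 CPM in Kdm5c siRNA cells and 415, 417, 409, 397 and 394 CPM in scramble cells on day −1. These groups overlapped. On day 0 it had 354, 358, 362, 361 and 371 CPM in Kdm5c siRNA cells and 340, 346, 337, 352 and 341 CPM in scramble cells, with no overlap. The log2 fold change of Kdm5c siRNA over scramble was 0.02 (95% interval −0.02 to 0.07, adjusted p = 0.488) on day −2, −0.03 (−0.07 to 0.02, adjusted p = 0.385) on day −1 and 0.08 (SE 0.0229, adjusted p = 0.00857) on day 0, with an exact permutation p of 0.341, 0.294 and 0.00794. The day 0 value exceeded that of day −1 by 0.10 (SE 0.0323, adjusted p = 0.0508), close to the threshold: this difference passed by DESeq2 (adjusted p = 0.0285), by limma (0.0385 to 0.0408), and by edgeR with median-of-ratios scaling (0.0471), upper-quartile scaling (0.0358) or a CPM of at least 5 in 5 libraries (0.042). It did not pass with a replicate block (0.0607), with no low-count filter (0.126) or with only the libraries of the contrast (0.0734). It passed in 6 of 20 fits that left out 1 library, and gave 0.06 (adjusted p = 0.382) without scramble day −1 replicates 1, 2 and 3 and 0.13 (adjusted p = 0.0146) without replicates 4 and 5. From day −2 to day 0 Ehd2 fell by 0.18 (SE 0.0229, adjusted p = 8.28e-09) in Kdm5c siRNA cells and by 0.23 (SE 0.0229, adjusted p = 2.27e-11) in scramble cells.

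**Figure D3:**
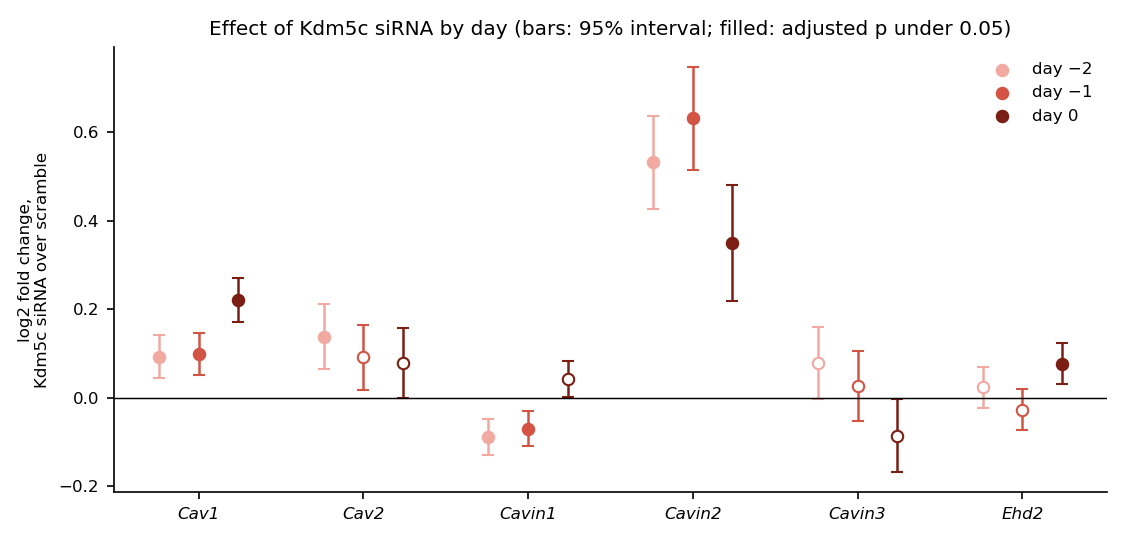
Log2 fold change of Kdm5c siRNA over scramble for each member on days −2, −1 and 0 (light to dark), with the 95% interval from edgeR; filled points had an adjusted p under 0.05. Cavin2 lies at 0.35 to 0.63, Cav1 at 0.09 to 0.22, and Cavin1 is the one gene with filled points below 0.

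Counted over the 6 members, Kdm5c siRNA cells differed from scramble cells in 4 genes on day −2 (Cav1, Cav2 and Cavin2 higher, Cavin1 lower), where 23.2% of all genes tested were called, 11.3% higher and 11.9% lower. On day −1 there were 3 (Cav1 and Cavin2 higher, Cavin1 lower), against 35.6% of all genes, 18.8% higher and 16.8% lower, and on day 0 there were 3 (Cav1, Cavin2 and Ehd2, all higher), against 35.5%, 19.3% higher and 16.2% lower. Without scramble replicates 1, 2 and 3, the day −1 count was 1. That fit holds fewer libraries, and its share of all genes called is not given here. This count is therefore not to be read against 35.6%. The libraries of the 2 siRNAs did not overlap for 4, 2 and 3 members on the 3 days, against 16.1, 22.3 and 21.7% of all genes. The median log2 fold change of the members was 0.09, 0.06 and 0.08, while that of all genes was below 0.004 on each day. Differences between days of the siRNA difference were called for 0 members for day −1 minus day −2, where 3.56% of all genes were called by edgeR, 0 members had an unadjusted p under 0.05, and DESeq2 and limma also called 0. There were 3 for day 0 minus day −1 (Cav1, Cavin1 and Cavin2; 5.87% of all genes) and 3 for day 0 minus day −2 (Cav1, Cavin1 and Cavin3; 16.1% of all genes).

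Over the days, most genes of these cells changed, so the members' counts stand against a high background. In Kdm5c siRNA cells 5 members were called on day −1 relative to day −2 (76.8% of all genes), among them Ehd2 at −0.07 (adjusted p = 0.00413), which was −0.02 (adjusted p = 0.476) with upper-quartile scaling. There were 6 on day 0 relative to day −1 (74.7%) and 6 on day 0 relative to day −2 (87.4%). In scramble cells the counts were 4 (78.9%), 6 (74.7%) and 5 (88.2%). The direction was shared: on day 0 relative to day −2, 6 members were lower in Kdm5c siRNA cells and 5 in scramble cells, against 43.6% of all genes in either. The median log2 fold change of the members was −0.65 in Kdm5c siRNA cells and −0.69 in scramble cells over that interval, and that of all genes was below 0.004 in size. Across the same days the summed fibroblast and preadipocyte markers, of which Col1a1 and Col1a2 make up most, went up, with 8 of the 9 genes higher and Vim lower on day 0 relative to day −2 under either siRNA. The sum spanned 28000 to 29800 CPM in Kdm5c siRNA libraries and 26700 to 27700 CPM in scramble libraries on day −2, and 34500 to 38700 CPM and 36300 to 40000 CPM on day 0. The list for muscle, another tissue rich in caveolae, had 3 of 7 members in the count table, which did not move together. Acta1 averaged 0.873 CPM in Kdm5c siRNA cells and 0.642 CPM in scramble cells on day 0, against 32.6 and 32.2 CPM on day −2. Smtn averaged 73.4 and 70.4 CPM on day 0 against 85.4 and 74.0 CPM on day −2, and Des 5.38 and 5.50 CPM on day 0 against 1.40 and 1.54 CPM on day −2. The muscle sum spanned 115 to 123 CPM in Kdm5c siRNA libraries and 107 to 110 CPM in scramble libraries on day −2 and 76.3 to 83.2 CPM and 74.5 to 78.8 CPM on day 0. Myod1, which defines skeletal muscle, was at 0 in all 30 libraries, and Myog and Ckm were at or below 0.038 CPM. The mature adipocyte sum, which is mostly Plin4, Pparg and Fabp4, spanned 73.8 to 85.7 CPM in Kdm5c siRNA libraries and 75.7 to 84.0 CPM in scramble libraries on day −2. It spanned 114 to 119 CPM and 123 to 148 CPM on day −1, and 148 to 161 CPM and 156 to 169 CPM on day 0. Of the 4 tested genes, 3 were higher and 1 lower on day 0 relative to day −2 under either siRNA. Plin4 averaged 76.5 CPM in Kdm5c siRNA cells and 92.1 CPM in scramble cells on day 0, against 14.4 and 19.3 CPM on day −2. Pparg went the other way, with 41.8 and 39.4 CPM on day 0 against 50.5 and 46.8 CPM on day −2. The 6 endothelial markers, 2 of them in the count table, summed to 2.24 to 3.39 CPM in all groups of day −2 and day −1. On day 0 they summed to 5.04 to 7.88 CPM in Kdm5c siRNA libraries and 4.57 to 5.47 CPM in scramble libraries. Pecam1, Cdh5 and Tek stayed at or below 0.636 CPM. The 2 in the count table were Vwf and Kdr. Vwf averaged 4.43 CPM in Kdm5c siRNA cells and 3.27 CPM in scramble cells on day 0, against 1.06 and 1.21 CPM on day −2. Kdr averaged 1.61 and 1.22 CPM on day 0 against 1.37 and 1.23 CPM on day −2. With the Kdm5c siRNA, 1 of the 2 was called higher on day −1 and 1 on day 0. The 5 macrophage markers, 2 of them in the count table, summed to 6.41 to 9.12 CPM in Kdm5c siRNA libraries and 5.03 to 7.44 CPM in scramble libraries on day −2, 4.42 to 5.1 CPM and 3.58 to 4.44 CPM on day −1, and 3.93 to 5.7 CPM and 2.6 to 3.39 CPM on day 0, with Adgre1 at 0 throughout. Ptprc reached 0.0985 CPM at most and Lyz2 0.5004 CPM. The 2 tested genes, Cd68 and Csf1r, did not move together over the days. Under either siRNA, 1 was higher and 1 lower on day 0 relative to day −2. In scramble cells Cd68 averaged 1.31 CPM on day −2 and 1.74 CPM on day 0, and Csf1r 5.00 and 1.07 CPM. On day 0, when Cav1, Cavin2 and Ehd2 were higher with the Kdm5c siRNA, both tested macrophage genes were also higher. Cd68 was higher by 0.91 (adjusted p = 1.28e-06) and Csf1r by 0.52 (adjusted p = 0.0415). Of all genes, 19.3% were called higher with the Kdm5c siRNA on that day. The part of these marker genes in the members' results was not tested.

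**Figure D4:**
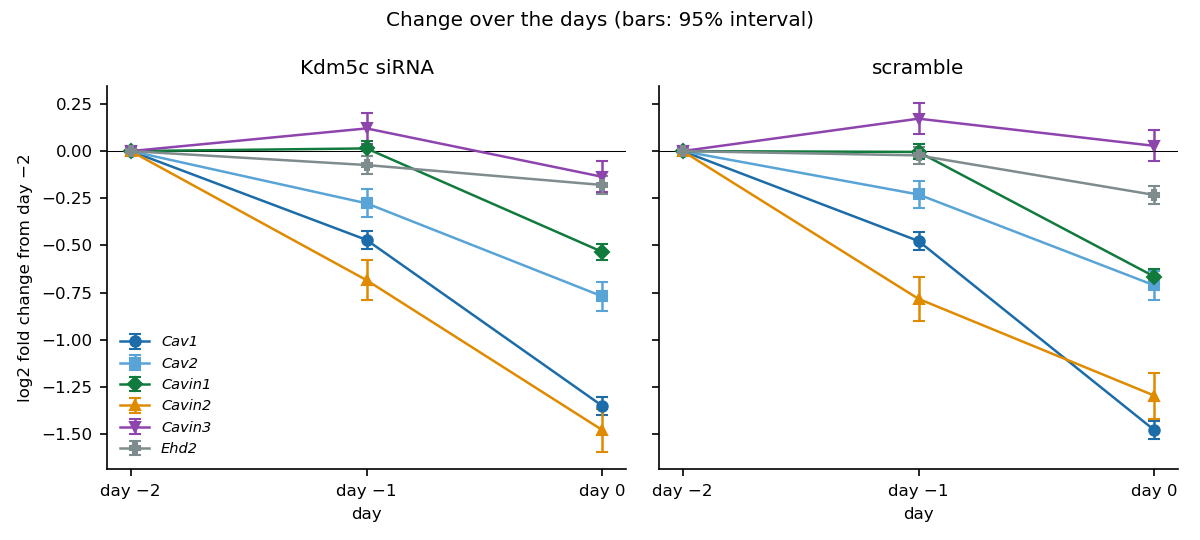
Log2 fold change from day −2 to day −1 and day 0 of each member, in Kdm5c siRNA cells (left) and scramble cells (right), with 95% intervals from edgeR; day −2 is set at 0. Cav1 and Cavin2 fall furthest, to between −1.30 and −1.48 on day 0, Cavin1 changes mainly in the last day, and Cavin3 lies above 0 on day −1.

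The members were not alike in how they varied over the 30 libraries, which share the cell line and the days. Cav1 and Cav2 had a Pearson r of 0.984 in log2 CPM, and Cav1 had 0.922 with Cavin1, 0.914 with Cavin2, 0.912 with Ehd2 and 0.328 with Cavin3. Once each group's mean was removed, r was 0.624 for Cav1 and Cav2 and between −0.395 and 0.453 for the other 14 pairs. The 3 genes most like Cav1 in level were Kif23 (r = 0.998), Cdk1 (0.997) and Mad2l1 (0.997), which act in cytokinesis, mitotic entry and the spindle checkpoint. For Cavin1 they were the nuclear lamin gene Lmna (0.996) and the mitotic genes Kif14 (0.991) and Aspm (0.989), and Lmna was also first for the deviations from the group means (0.833). Those of Cav2 were Slc25a24 (0.986), Cyb5b (0.985) and Actr3 (0.985), and those of Cavin2 were Slc4a7 (0.982), Ppp6c (0.981) and Rad54l2 (0.979). Ehd2 was most like Sec61b (0.942), the co-chaperone gene Bag3 (0.939) and Glis3 (0.936). Cavin3 had no close match: its nearest were Gamt (0.836) and Peg10 (0.795). These likenesses were sought among 10492 protein-coding genes over 30 libraries that share the days, and they are descriptions with no test.

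For the wider machinery, the calls with the Kdm5c siRNA are to be read against 23.2% of all genes on day −2, 35.6% on day −1 and 35.5% on day 0. Of 10 genes for the neck and for membrane shaping (EHD, pacsin and dynamin genes and Ror1), 9 were in the count table. With the Kdm5c siRNA, 0 rose and 2 fell on day −2, 2 rose and 3 fell on day −1, and 3 rose and 2 fell on day 0, with medians of −0.03, −0.01 and 0.01. These are 2, 5 and 5 of 9. Dnm3, a dynamin gene, rose by 0.54 (SE 0.0886, adjusted p = 1.01e-05) on day −1 and 0.51 (adjusted p = 3.06e-06) on day 0, while Ehd4 fell by 0.15 and 0.24 on those days and Dnm1 fell by 0.16 on day −2 and by 0.16 on day −1. On day 0 relative to day −2, 5 of the 9 rose and 4 fell in Kdm5c siRNA cells, and 4 rose and 4 fell in scramble cells. On that comparison 87.4% of all genes were called in Kdm5c siRNA cells and 88.2% in scramble cells, with 43.6% lower in either. Ehd1, a relative of Ehd2 that acts in endosomal recycling, fell by 1.09 in each, whereas Dnm1 rose by 1.93 in Kdm5c siRNA cells and 1.80 in scramble cells.

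Of 16 genes whose products have been reported to bind caveolin or to sit in caveolae, 13 were in the count table. With the Kdm5c siRNA, 4 rose and 2 fell on day −2, 6 rose and 5 fell on day −1, and 2 rose and 2 fell on day 0, or 6, 11 and 4 of 13 against 23.2, 35.6 and 35.5% of all genes. Flna, the actin crosslinker filamin A that ties caveolae to stress fibres, rose on each day by 0.10 on day −2 (adjusted p = 0.000624), by 0.21 on day −1 (adjusted p = 2.06e-09) and by 0.29 on day 0 (SE 0.0219, adjusted p = 1.21e-12). The water channel gene Aqp1 fell by 0.18 on day −2 and by 0.24 on day −1. On day 0 relative to day −2, 6 of the 13 rose and 7 fell under either siRNA. The share of all genes called was 87.4% in Kdm5c siRNA cells and 88.2% in scramble cells. Flna fell by 0.51 in Kdm5c siRNA cells and by 0.70 in scramble cells on day 0 relative to day −2, as Cav1 did, and Aqp1 rose by 1.25 and 1.01.

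The clathrin coat, the other main route of uptake, had 18 of 20 genes in the count table, of which 3 rose and 1 fell with the Kdm5c siRNA on day −2, 2 rose and 3 fell on day −1, and 4 rose and 3 fell on day 0. These are 4, 5 and 7 of 18, near the 23.2, 35.6 and 35.5% of all genes. Clta, a clathrin light chain gene, fell by 0.12, 0.18 and 0.22 on the 3 days. Cltc, the heavy chain gene, fell by 0.10 on day −1 (adjusted p = 1.05e-05), and the adaptor genes Ap2m1 and Dab2 rose by 0.14 (adjusted p = 1.55e-06) and 0.17 (adjusted p = 2.17e-05) on day 0. On day 0 relative to day −2, 10 rose and 5 fell in Kdm5c siRNA cells (87.4% of all genes called), and 9 rose and 6 fell in scramble cells (88.2%). Of the 8 flotillin and stomatin genes, whose products scaffold other membrane domains, 7 were in the count table. With the Kdm5c siRNA, 2 rose and 1 fell on day −2, 3 rose and 1 fell on day −1, and 4 rose and 1 fell on day 0, or 3, 4 and 5 of 7 against the same shares of all genes. Flot2 was the one that fell, by 0.26 (adjusted p = 6.99e-09), 0.28 (adjusted p = 2.8e-10) and 0.19 (adjusted p = 1.21e-06). Erlin1, an endoplasmic reticulum member, rose by 0.26 on day −2 and 0.34 on day −1. On day 0 relative to day −2, 5 rose and 2 fell in Kdm5c siRNA cells (87.4% of all genes called), and 4 rose and 2 fell in scramble cells (88.2%). Flot1 rose by 1.11 in Kdm5c siRNA cells and 1.08 in scramble cells, so it went up where Cav1 and Cavin1 went down.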

How the data were processed

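The submitters' processing notes name STAR 2.7.2a, edgeR 3.26.8 and GRCm38, without saying what each did; what counted the reads, and on which annotation, is not given in the sources used here. Values deposited by the authors are CPM (reads relative to the library total, with no other scaling) for 55573 genes, and raw counts for the 12016 genes whose CPM reached 1 in 20 or more of the 30 libraries; 100.0% of nonzero CPM values were whole reads within 0.05, and the counts equalled them. The table held 99.73 to 99.8% of the reads of a library.

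Levels are deposited CPM, mean ± SD of 5 libraries. Differences come from edgeR 4.0.16 (R 4.3.3): a quasi-likelihood fit of the deposited counts with TMM scaling, 6 group means and 24 residual degrees of freedom, two-sided, with Benjamini-Hochberg adjustment over 12016 genes; a gene was called, rose or fell at an adjusted p under 0.05. The script was tested on simulated data. Single values also had an exact permutation test. Alternatives were DESeq2 1.42.0, limma 3.58.1 on log2(CPM + pseudocount) without TMM, other scalings and filters, a replicate block, fits restricted to the compared groups, and libraries left out; leaving out scramble day −1 replicates 1, 2 and 3 together was chosen from earlier results of these data, and leaving out replicates 4 and 5 together after seeing the files. Intervals and limits cover counting error or the spread between libraries only.

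Gene models were GENCODE M21 (GRCm38), with names for 12010 of 12016 identifiers, and promoter windows were RefSeq (GRCm38.p6). The members and the gene lists were chosen with earlier results of these data known. Named genes were the members, Kdm5c, per list up to 4 called genes with the smallest adjusted p per comparison, and the 3 protein-coding genes most like each member by Pearson r of log2 CPM (mean of at least 2 CPM, prior count 2). Marker genes were named to describe their lists. Some genes that this rule would name are left out of the text. Same-numbered libraries of the 2 siRNAs did not vary together on any day, so the numbers were not used as pairs.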

Additional observations from a re-analysis of the deposited data

Results flagged for a closer look

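In the Kdm5c siRNA libraries of day −1, Cavin1 in replicate 5, at 826.2 CPM, stood apart from the other 4, which held 812 to 814 CPM; its gap was 0.832 of the group's range, against a limit of 0.71. Among 36 groups of 5 checked, 1 exceeded the limit, and chance gives about 1 in 20.

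The siRNA difference changed between days by the test of the difference itself in 6 cases. Relative to day −2, the day 0 value was higher by 0.1276 for Cav1 (adjusted p = 0.00814) and by 0.1306 for Cavin1 (adjusted p = 0.00116), and lower for Cavin3, at −0.1641 (adjusted p = 0.0452). Relative to day −1, it was higher by 0.1217 for Cav1 (adjusted p = 0.0259) and by 0.112 for Cavin1 (adjusted p = 0.0114), and lower for Cavin2, at −0.2816 (adjusted p = 0.0451). The 2 sets of differences share the day 0 libraries.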

How the results depend on the processing

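The differences between the siRNAs called on day −2 and on day 0, and that of Cavin2 on day −1, were called in every fit run. The number of members called on day −1 was 1 in place of 3 without scramble day −1 replicates 1, 2 and 3. That for day 0 minus day −1 was also 1 in place of 3 in that fit. Leaving out 1 library, the count for day 0 minus day −1 ran from 1 (without scramble day 0 replicate 2 or 5) to 4. These fits hold fewer libraries than the main fit, and the share of all genes called in them is not given here. The cause of the changed counts was not tested. The replicate block (same-number r from −0.225 to 0.299, with 1, 1 and 2 of 5 pairs over 0.1 on the 3 days and 1 of 5 libraries best with its own number on each) lost 2 calls, Cavin2 for day 0 minus day −1 (−0.28, adjusted p = 0.0663) and Cavin3 for day 0 minus day −2 (−0.16, adjusted p = 0.0555). Values that changed sign were these. For day −1 against day −2 in scramble cells, Cavin1 was 0.057 with upper-quartile scaling, 0.0092 with a CPM of at least 5 in 5 libraries, and 0.0685, 0.06853 and 0.06838 by limma at pseudocounts of 0.5, 0.1 and 2, and Ehd2 was 0.0388, 0.0498, 0.04984 and 0.0496 with upper-quartile scaling and those of limma, and 0.0019 without replicates 4 and 5. In Kdm5c siRNA cells that step was 0.0011 for Ehd2 by limma at each pseudocount and −0.024 for Cavin1 with no low-count filter. The median of all genes moved by up to 0.0775 on this step without TMM. Cavin3 on day 0 against day −2 in scramble cells was −0.0152 with no filter. For day −1 minus day −2, Cav1 was −0.00030 with upper-quartile scaling and −0.0463 without replicates 1, 2 and 3, Cavin3 was 0.0284 in the same fit, and Cav2 was 0.0099 without replicates 4 and 5. For day 0 minus day −1, Cav2 was 0.0674 without replicates 1, 2 and 3. For day −1, Cavin3 was −0.0239 without replicates 4 and 5 and Ehd2 was 0.0115 without 1, 2 and 3. Over the fits that left out 1 library, Cav1 for day −1 minus day −2 ran from −0.0065 to 0.0254, Cav2 for day 0 minus day −1 from −0.0463 to 0.0131, Cavin1 in scramble cells on day −1 against day −2 from −0.0146 to 0.00090, Cavin3 for day −1 from −0.00072 to 0.0435, and Cavin3 in scramble cells on day 0 against day −2 from −0.0155 to 0.0608. TMM scaling moved 11 of 36 group levels by more than 1 SD.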

Other observations

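Both remaining members of the 2 families were outside the count table. Cav3, the caveolin of muscle, had 0 reads in all 30 libraries, which allows up to 0.119 CPM in the shallowest. Cavin4, the cavin known from muscle, was present at a low level. It had 1.5 ± 0.229 CPM in Kdm5c siRNA cells and 1.24 ± 0.18 CPM in scramble cells on day −2, 0.773 ± 0.265 and 0.867 ± 0.39 CPM on day −1, and 0.999 ± 0.205 and 1.01 ± 0.198 CPM on day 0 (SD, n = 5 each), or 12 to 48 reads per library. In the edgeR fit with no low-count filter, over 32318 genes, the siRNA difference did not pass on any day (adjusted p = 0.489, 0.787 and 1). On day −1 relative to day −2, Cavin4 fell by 1.06 (SE 0.195, adjusted p = 3.03e-07) in Kdm5c siRNA cells and by 0.63 (SE 0.197, adjusted p = 0.00517) in scramble cells, with no detected difference between these 2 steps (−0.43, SE 0.281, adjusted p = 0.697).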
